A study of Homo sapiens with 8 samples.

Results

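The genes described here were 10 regulators of entry into the cell cycle, 10 of the 55679 gene identifiers in the count table, found by an exact match of the gene symbol. They were the D cyclin genes CCND1 and CCND3, the CDK inhibitor genes CDKN1A, CDKN1B, CDKN2B and CDKN2C, the stress genes GADD45A and GADD45B, and the antiproliferative genes BTG1 and BTG2. Each symbol matched 1 identifier, and all 10 passed the filter on low counts. Expression was measured by poly(A)-selected RNA-seq in 2 established triple-negative breast cancer (TNBC) cell lines, MDA-MB468 and BT549. Each line was used as parental cells and as chronically exposed (CE) cells, a derived population grown in rising Acetalax up to 40 μmol/L and used after 2 drug-free weeks. Acetalax (oxyphenisatin acetate) is a former laxative. Both states of both lines were sequenced without drug (control) and after 6 hours of 1 μmol/L Acetalax, which gave 8 libraries in 4 backgrounds, with 1 library per condition. The comparisons ask which transcripts were altered by the drug and which differed between CE and parental cells.

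D cyclins bind CDK4 and CDK6, and the active kinases phosphorylate the retinoblastoma protein and release E2F factors, which opens the way from G1 into S phase. INK4 inhibitors such as p15 (CDKN2B) and p18 (CDKN2C) bind CDK4 and CDK6 themselves, whereas CIP/KIP inhibitors such as p21 (CDKN1A) and p27 (CDKN1B) bind whole cyclin-CDK complexes. GADD45 proteins are small stress-inducible proteins that bind p21, PCNA and the kinase MAP3K4 upstream of p38 and JNK, and BTG proteins bring the CCR4-NOT deadenylase to messenger RNAs.

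The promoters of CDKN1A and CDKN2C are shown because these genes moved in opposite directions under Acetalax in all 4 backgrounds. Each is the 250 bases before a start site in RefSeq (GRCh38.p14), written 5′ to 3′ on the plus strand, the strand of both genes. Capitals mark matches on either strand to the GC box GGGCGG, the E-box CACGTG or CCAAT. CDKN1A has 1 window, chr6:36678464-36678713, and CDKN2C has 3, chr1:50960495-50960744, chr1:50968456-50968705 and chr1:50969995-50970244.
CDKN1A: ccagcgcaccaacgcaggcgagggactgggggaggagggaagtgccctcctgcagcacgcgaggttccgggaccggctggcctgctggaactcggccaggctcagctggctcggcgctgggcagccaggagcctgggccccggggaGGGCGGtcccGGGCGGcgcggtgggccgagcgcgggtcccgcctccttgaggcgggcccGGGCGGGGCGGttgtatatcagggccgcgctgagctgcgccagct
CDKN2C window 1: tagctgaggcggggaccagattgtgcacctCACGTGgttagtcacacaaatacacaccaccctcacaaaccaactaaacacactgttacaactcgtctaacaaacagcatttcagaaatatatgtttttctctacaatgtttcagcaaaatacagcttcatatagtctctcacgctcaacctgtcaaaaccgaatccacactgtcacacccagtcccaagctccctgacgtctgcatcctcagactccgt
CDKN2C window 2: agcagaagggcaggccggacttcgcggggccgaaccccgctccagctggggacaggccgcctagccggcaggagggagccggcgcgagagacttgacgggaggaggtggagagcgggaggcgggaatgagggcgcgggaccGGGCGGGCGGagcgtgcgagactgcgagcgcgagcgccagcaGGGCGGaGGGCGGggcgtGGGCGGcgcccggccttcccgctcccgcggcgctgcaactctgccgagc
CDKN2C window 3: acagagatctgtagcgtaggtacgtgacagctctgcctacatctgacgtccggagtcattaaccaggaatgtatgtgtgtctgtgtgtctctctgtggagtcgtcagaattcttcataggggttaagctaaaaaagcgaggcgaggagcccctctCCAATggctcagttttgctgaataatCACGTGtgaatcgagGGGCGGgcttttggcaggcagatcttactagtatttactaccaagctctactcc
The CDKN1A window held 4 GC-box matches and no E-box. CDKN2C window 2 held 5 GC-box matches, window 1 held 1 E-box, and window 3 held 1 E-box, 1 GC box and 1 CCAAT. The bases were 76.4% G or C in the CDKN1A window and 77.2% in CDKN2C window 2, against 45.6% and 48.8% in CDKN2C windows 1 and 3 and a median of 58.0% over all 35116 promoter windows.

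RefSeq windows were matched for 8 of the 10 genes, 12 windows in all, and not for CCND1 and GADD45A. Of these 8 genes, 7 had a GC box in at least 1 window. It was in 9 of their 12 windows, and 42.6% of all promoter windows held one. CCAAT was found for 6 genes, in 7 of the 12 windows and in 32.0% of all windows. The E-box was found for 2 genes in 3 windows (6.34% of all windows). TATAAA was found for 2 genes in 2 windows (10.7%) and the FOXO letters TGTTTAC for 1 gene in 1 window (2.98%). No window of the 8 genes held the AP-1 letters TGANTCA, the cAMP response element TGACGTCA or the ATF4-C/EBP letters TGATGNAA, which occur in 6.57%, 1.65% and 3.14% of all windows. These are matches of letters on either strand in 250 bases, not measured binding sites, and the gene counts do not tell the start sites of a gene apart.

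Total counts per library ran from 42261122 to 54241728, so that 1 CPM (counts per 1000000 counts of the library) stood for 42.3 to 54.2 counts. The lines carried their usual markers: EPCAM was at 409 to 438 CPM in the MDA-MB468 libraries and at most 0.189 CPM in BT549, and CDH2 was at 0 in MDA-MB468 and 110 to 242 CPM in BT549. All 6 epithelial markers were higher in every MDA-MB468 library and all 5 mesenchymal markers in every BT549 library. PGR was at most 0.627 CPM, ESR1 was at 3.50 to 5.15 CPM in MDA-MB468 and at most 0.184 CPM in BT549, and the markers of leukocytes, red cells and liver did not exceed 0.756 CPM. ERBB2, the other receptor gene of the triple-negative label, was at 44.5 to 95.2 CPM in MDA-MB468 and 41.2 to 89.0 CPM in BT549. Scaling by total counts put the median log2 ratio of all genes averaging 1 CPM or more (14030) at -0.17 for Acetalax in BT549 CE (0.00 with TMM scaling) and at -0.11 for treated BT549 CE against treated BT549 parental cells (0.07 with TMM). In the other pairs this median lay within 0.1 of 0, and TMM scaling turned the sign of no Acetalax ratio of the 10 genes. In bulk RNA a lower share of cells that express a gene and less RNA per cell cannot be told apart.

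Acetalax raised GADD45A and CDKN1A and lowered CDKN2C over the 4 backgrounds, and the other 7 genes did not pass the test. GADD45A rose 2.08-fold to 5.88-fold, CDKN1A 1.54-fold to 6.83-fold, and CDKN2C fell to between 0.173 and 0.531 of its control. In edgeR's quasi-likelihood test with the background as a block, 3 of the 10 genes had a Benjamini-Hochberg adjusted p below 0.05. The background was 5.0% of the 19693 genes tested (2.72% higher, 2.27% lower). The median log2 fold change was 0.44 for the 10 genes and -0.04 for all genes tested. The 4 backgrounds are 2 lines and their CE derivatives, so they are not independent of each other.

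**Figure D1:**
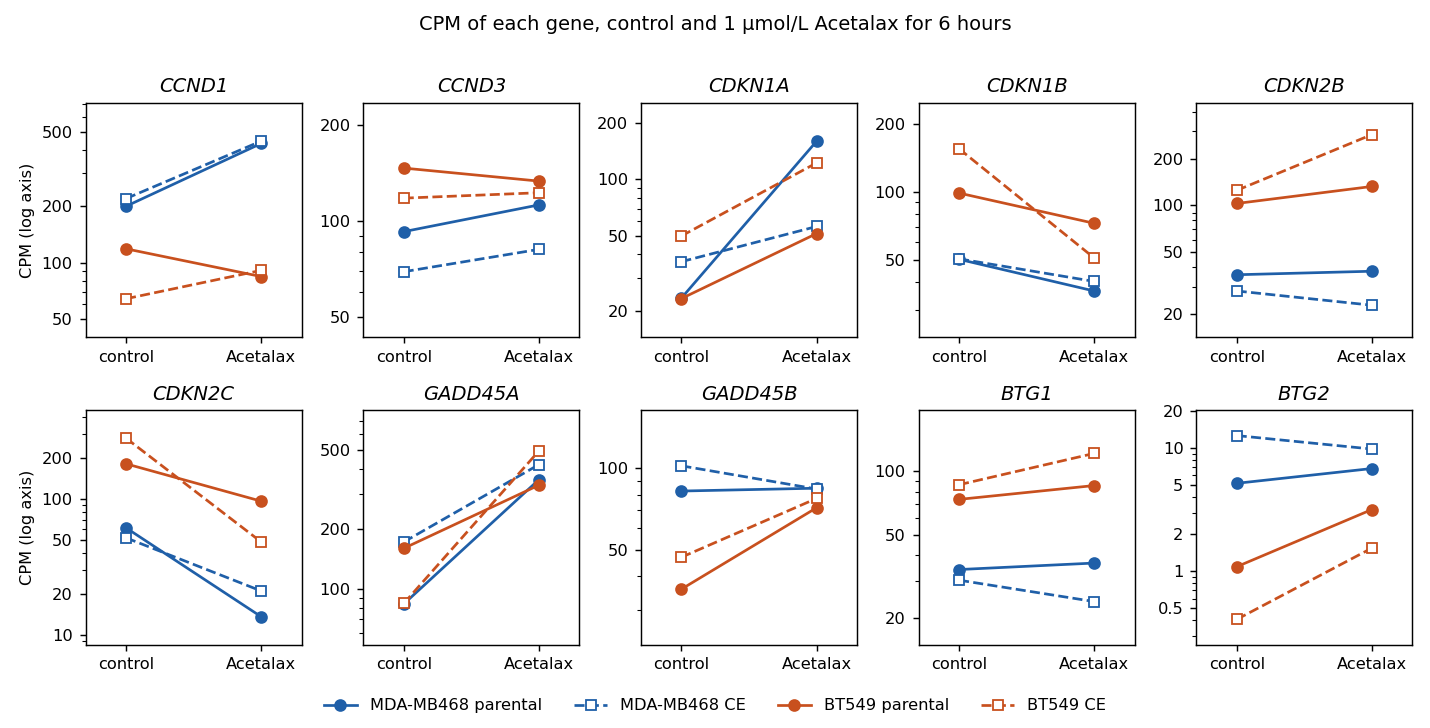
Level of each gene (CPM, log axis, own range per gene) in the control and the Acetalax library of each background. Points are single libraries, lines join the libraries of a background, colours mark the lines and open squares with dashed lines the CE cells. GADD45A and CDKN1A end above all controls in all 4 treated libraries, and CDKN2C falls in all 4 backgrounds.

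GADD45A (ENSG00000116717, chromosome 1, 68150744 to 68154021, plus strand, hg19), a stress sensor gene of growth arrest and DNA damage, went from 83.5 to 354 CPM in MDA-MB468 parental cells, from 159 to 332 CPM in BT549 parental cells, from 172 to 421 CPM in MDA-MB468 CE cells and from 84.1 to 494 CPM in BT549 CE cells. The treated libraries all lay above the 4 controls. The smallest rise was in BT549 parental cells, a log2 ratio of 1.06 (95% exact counting interval 1.02 to 1.10), and the largest in BT549 CE cells, 2.55 (2.51 to 2.60). It was the only 1 of the 10 genes with a log2 ratio of at least 1 in all 4 backgrounds, a size reached by 0.107% of all genes. A log2 ratio of at most -1 in all 4 backgrounds was reached by 0 of the 10 genes and 0.0428% of all genes. The edgeR log2 fold change was 1.84 ± 0.25 (SE, adjusted p = 0.0295).

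CDKN1A (ENSG00000124762, chromosome 6, 36644305 to 36655116, plus strand, hg19), which encodes the CDK inhibitor p21, went from 23.4 to 159.7 CPM in MDA-MB468 parental cells, from 23.2 to 51.5 CPM in BT549 parental cells, from 36.5 to 56.2 CPM in MDA-MB468 CE cells and from 50.04 to 122 CPM in BT549 CE cells. All 4 treated libraries exceeded all 4 controls, narrowly where treated BT549 parental cells (51.5 CPM) met untreated BT549 CE cells (50.04 CPM). Among the 10 genes this held for GADD45A and CDKN1A, 2 of 10 against 1.24% of all genes. The log2 ratio was 2.75 (2.68 to 2.86) in MDA-MB468 parental cells and 0.62 (0.53 to 0.71) in MDA-MB468 CE cells, with 1.13 and 1.28 in BT549 parental and CE cells. The edgeR log2 fold change was 1.54 ± 0.31 (SE, adjusted p = 0.0424).

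CDKN2C (ENSG00000123080, chromosome 1, 51426417 to 51440305, plus strand, hg19), which encodes the INK4 inhibitor p18, went from 60.9 to 13.5 CPM in MDA-MB468 parental cells, from 180.1 to 95.7 CPM in BT549 parental cells, from 51.4 to 20.9 CPM in MDA-MB468 CE cells and from 278 to 48.0 CPM in BT549 CE cells. It fell in each background, while treated BT549 parental cells still held more than both MDA-MB468 controls, so that treated and control libraries overlapped. The 4 treated libraries lay below all 4 controls for 0 of the 10 genes, and for 2.81% of all genes. The log2 ratios were -2.13, -0.91, -1.28 and -2.52 in that order. The edgeR log2 fold change was -1.64 ± 0.25 (SE, adjusted p = 0.0327).

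The calls of all 3 genes depended on the MDA-MB468 parental pair. Without it, edgeR called 0 of 18967 genes (3491 at an unadjusted p below 0.05), and the log2 fold changes were 1.74 for GADD45A, 1.13 for CDKN1A and -1.47 for CDKN2C, with an adjusted p of 0.17 each. This was the lowest adjusted p of any gene in that fit. The unadjusted edgeR p was 0.000911, 0.000446 and 0.00129 in the same order, against 9.55e-05, 0.00122 and 0.000228 with all pairs. The call of CDKN1A was also lost without the BT549 parental pair (log2 fold change 1.67, adjusted p = 0.0921) and without the BT549 CE pair (1.57, adjusted p = 0.0752).

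The second CIP/KIP gene went the other way. CDKN1B, which encodes p27, went from 50.2 to 36.3 CPM in MDA-MB468 parental cells, from 99.0 to 72.6 CPM in BT549 parental cells, from 50.5 to 40.1 CPM in MDA-MB468 CE cells and from 156 to 50.9 CPM in BT549 CE cells. All 4 values were lower with the drug, and the log2 ratio of BT549 CE cells, -1.60, stood apart from -0.46, -0.44 and -0.33 in the others. CDKN1B and CDKN2C were the 2 genes of the 10 with a negative ratio in all 4 backgrounds (29.5% of all genes), and GADD45A and CDKN1A the 2 with a positive ratio in all 4 (11.8% of all genes). CDKN1B did not pass the test (edgeR log2 fold change -0.62 ± 0.20, adjusted p = 0.0966), though it did by DESeq2 (-0.615, adjusted p = 0.0411).

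The second INK4 gene, CDKN2B, did not follow CDKN2C. CDKN2B, which encodes p15, went from 35.8 to 37.7 CPM in MDA-MB468 parental cells, from 103 to 132 CPM in BT549 parental cells, from 28.1 to 22.8 CPM in MDA-MB468 CE cells and from 125 to 286 CPM in BT549 CE cells. Only the BT549 CE pair changed by more than 2-fold (log2 ratio 1.19, interval 1.15 to 1.24), and the direction was not the same in all pairs (edgeR log2 fold change 0.42 ± 0.23, adjusted p = 0.274). CDKN2B lies opposite the antisense gene CDKN2B-AS1. Libraries came from a directional kit, but the strand setting of the counts is not given in the sources used here. CDKN2B-AS1 was at 4.16 to 23.2 CPM, and its log2 ratio in BT549 CE cells was -0.36, opposite in sign to that of CDKN2B.

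CCND1, which encodes cyclin D1, went from 200.1 to 433 CPM in MDA-MB468 parental cells and from 220.0 to 446 CPM in MDA-MB468 CE cells, but from 119 to 84.2 CPM in BT549 parental cells and from 64.1 to 90.9 CPM in BT549 CE cells. The MDA-MB468 pairs had log2 ratios of 1.11 and 1.02, and the BT549 pairs -0.49 and 0.50, on opposite sides of 0, and the difference between the lines did not pass its test. Over the 4 backgrounds CCND1 did not pass (edgeR log2 fold change 0.64 ± 0.25, adjusted p = 0.145). Without the BT549 parental pair it did (1.00, adjusted p = 0.0354). CCND3, which encodes cyclin D3, stayed close to its controls, with log2 ratios of 0.28, -0.14, 0.23 and 0.06 in MDA-MB468 parental, BT549 parental, MDA-MB468 CE and BT549 CE cells (edgeR log2 fold change 0.20 ± 0.10, adjusted p = 0.244).

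GADD45B, the paralogue of GADD45A, went from 35.8 to 71.5 CPM in BT549 parental cells and from 47.0 to 77.4 CPM in BT549 CE cells. In MDA-MB468 it went from 82.4 to 84.4 CPM in parental cells and from 102 to 83.8 CPM in CE cells. In CPM by total counts, treated BT549 cells thereby came near the level that MDA-MB468 cells held with or without the drug, without reaching it. This gap between the lines was not computed under TMM scaling. Over the 4 backgrounds GADD45B did not pass (edgeR log2 fold change 0.46 ± 0.22, adjusted p = 0.213).

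The BTG genes had small or low-count ratios. BTG1 went from 34.2 to 36.7 CPM in MDA-MB468 parental cells, from 73.6 to 85.7 CPM in BT549 parental cells, from 30.4 to 24.1 CPM in MDA-MB468 CE cells and from 86.4 to 122 CPM in BT549 CE cells. BTG2, the lowest of the 10 genes, went from 252 to 332 counts in MDA-MB468 parental cells, from 46 to 138 counts in BT549 parental cells, from 559 to 468 counts in MDA-MB468 CE cells and from 22 to 78 counts in BT549 CE cells. Both genes were higher with the drug in 3 pairs and lower in MDA-MB468 CE cells, and neither passed (edgeR log2 fold changes 0.21 ± 0.15, adjusted p = 0.39, and 0.84 ± 0.38, adjusted p = 0.192). For BTG2 in BT549 the 0.5 CPM added before the log2 lowers the ratio: it was 1.17 in CE cells, against a counting interval of 1.23 to 2.68 for the ratio of the counts.

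**Figure D2:**
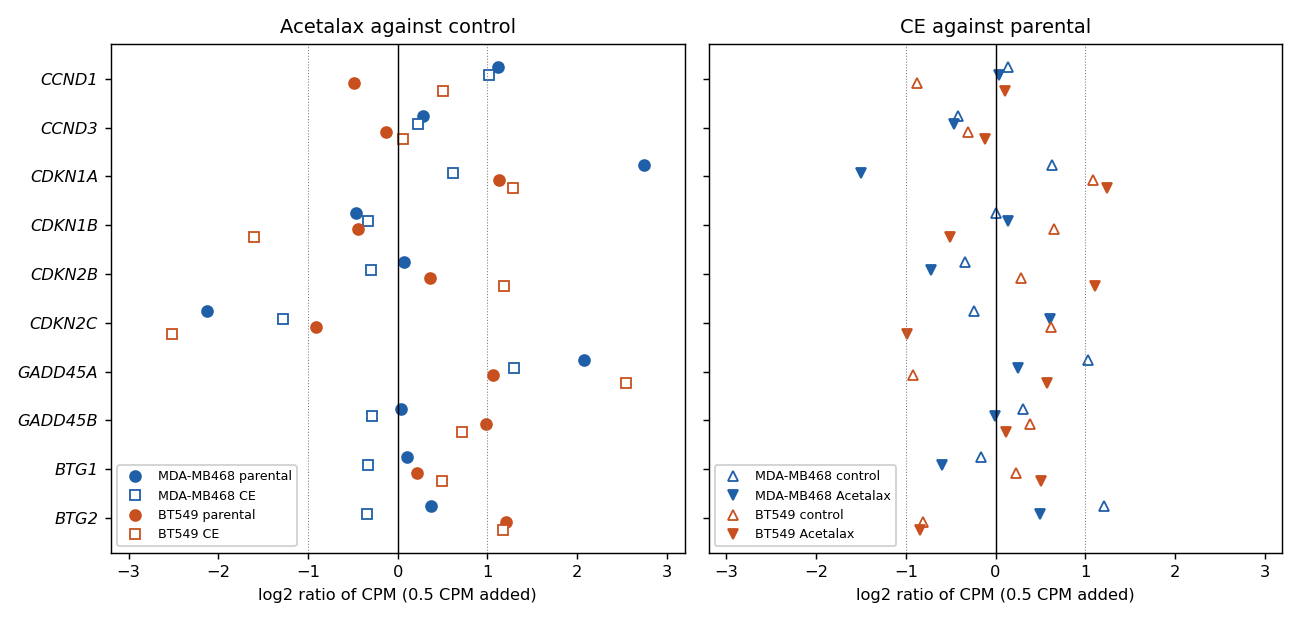
Log2 ratio of CPM (0.5 CPM added) for each gene in single pairs of libraries. Left, Acetalax against control in the 4 backgrounds. Right, CE against parental cells within each line, without (open triangles) and with (filled triangles) the drug. Dotted lines mark a 2-fold change. GADD45A lies beyond the right dotted line in all 4 backgrounds, and the CE ratios of GADD45A and BTG2 without drug lie on opposite sides of 0 in the 2 lines.

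Counted by pair, 3 of the 10 genes had a log2 ratio of at least 1 in MDA-MB468 parental cells (CCND1, CDKN1A and GADD45A), where 3.86% of all genes did. In BT549 parental cells there were 3 (CDKN1A, GADD45A and BTG2; 1.3% of all genes), in MDA-MB468 CE cells 2 (CCND1 and GADD45A; 1.6%) and in BT549 CE cells 4 (CDKN1A, CDKN2B, GADD45A and BTG2; 3.39%). A log2 ratio of at most -1 was seen for CDKN2C in MDA-MB468 parental cells (2.89% of all genes) and MDA-MB468 CE cells (1.78%), for CDKN2C and CDKN1B in BT549 CE cells (9.68%), and for 0 of the 10 genes in BT549 parental cells (1.33%).

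Per length, the balance within the INK4 pair and within the CIP/KIP pair shifted with the drug in all 4 backgrounds. FPKM, the CPM of a gene divided by its merged exon length in kilobases, allows genes to be compared. CDKN2B made up 25.3% to 30.7% of the summed FPKM of CDKN2B and CDKN2C in the 4 controls. With Acetalax its share was 67.8% in MDA-MB468 parental, 51.1% in BT549 parental, 45.1% in MDA-MB468 CE and 81.8% in BT549 CE cells. All treated libraries lay above the 4 controls.

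The share of CDKN1A in the sum of CDKN1A and CDKN1B went from 43.5% to 87.9% in MDA-MB468 parental cells, from 28.0% to 54.0% in BT549 parental cells, from 54.5% to 69.9% in MDA-MB468 CE cells and from 34.7% to 79.9% in BT549 CE cells. In controls CDKN1A was the lesser of the 2 except in MDA-MB468 CE cells, and in treated libraries it was the greater in all 4. GADD45A made up 52.96%, 83.2%, 65.1% and 66.5% of the sum of GADD45A and GADD45B in controls and 82.3%, 83.8%, 84.8% and 87.6% with the drug, in the order MDA-MB468 parental, BT549 parental, MDA-MB468 CE and BT549 CE. The treated shares of GADD45A were thus close together, and BT549 parental cells hardly moved. These shares restate the levels above and were not tested.

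**Figure D3:**
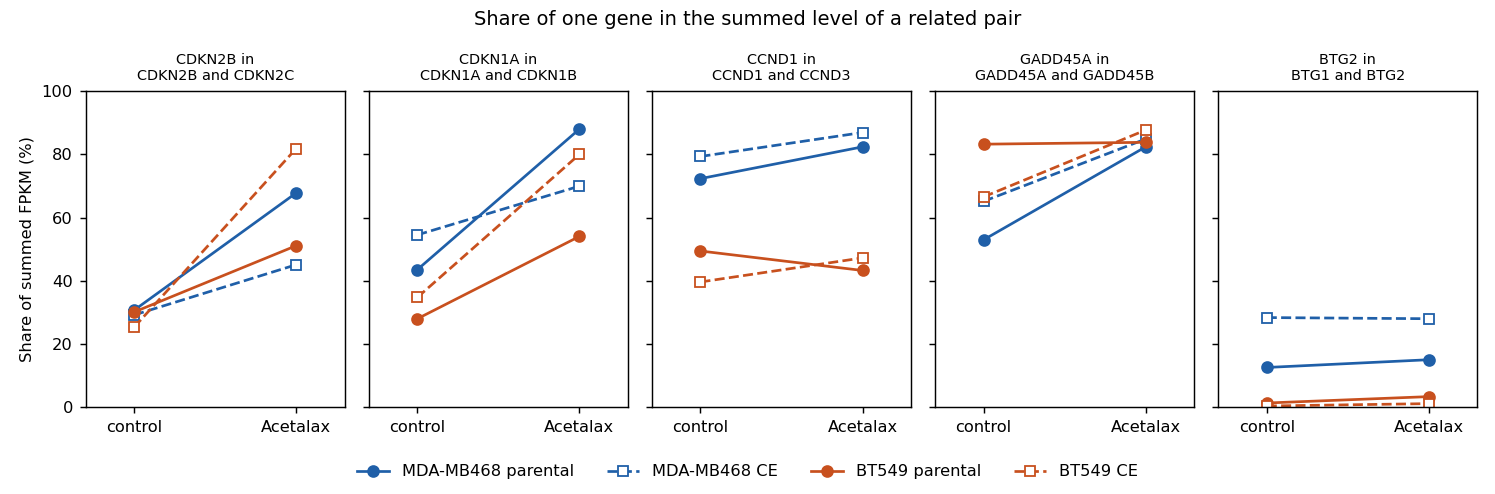
Share of 1 gene in the summed FPKM of a related pair (%), control and Acetalax, for single libraries of the 4 backgrounds. The CDKN2B share starts between 25.3% and 30.7% in the controls and ends between 45.1% and 81.8% with Acetalax.

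The response was set against line and state. For the difference of the Acetalax response between BT549 and MDA-MB468, edgeR called 1 of the 10 genes against 1.78% of all genes tested. It was GADD45B, whose response was higher in BT549 by a log2 difference of 1.04 ± 0.18 (SE, adjusted p = 0.0426). BTG2 differed by 1.74 ± 0.38 (adjusted p = 0.0736), CDKN2B by 0.95 ± 0.29 (adjusted p = 0.165) and CCND1 by -1.01 ± 0.31 (adjusted p = 0.159), and these did not pass. With 2 residual degrees of freedom the test speaks of these 2 lines and their CE derivatives.

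For the difference of the response between CE and parental cells, edgeR called 0 of the 10 genes and 0.0% of all genes (91 of 19693 at an unadjusted p below 0.05, and 0 by DESeq2). In MDA-MB468 the ratio of treated to control CDKN1A was 6.83 in parental and 1.54 in CE cells, and in BT549 it was 2.22 in parental and 2.45 in CE cells. The fitted difference for CDKN1A was -0.96 ± 0.54 (edgeR, adjusted p = 1). For GADD45A the ratio was 4.24 in parental and 2.46 in CE cells of MDA-MB468, and 2.08 and 5.88 in those of BT549, with a fitted difference of 0.40 ± 0.50 (adjusted p = 1). The standard errors of this difference ran from 0.24 (CCND3) to 0.84 (BTG2), and an adjusted p of 1 does not show that the states responded alike.

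CE cells were then set against their parents without drug. In MDA-MB468, BTG2 was 2.44-fold and GADD45A 2.05-fold higher in CE cells, 2 of the 10 genes with a log2 ratio of at least 1 where 1.64% of all genes had one. In BT549, CDKN1A was 2.15-fold higher (1 of 10, against 6.23% of all genes), and 0 of 10 had a log2 ratio of at most -1 (4.45% of all genes), although GADD45A and CCND1 were at 0.527 and 0.541 of the parental level. BTG2 in BT549 CE cells was at 0.373 of the parental level, 22 against 46 counts, the lowest ratio of the 10 genes in this pair. Its log2 ratio was -0.81 with 0.5 CPM added, and the counting interval of the count ratio was -2.23 to -0.66. Of the 10 genes, 6 had ratios of opposite sign in the 2 lines, against 45.0% of all genes. Over the 4 CE-parental pairs, controls and treated together, edgeR called 0 of the 10 genes and 0.117% of all genes (0.0609% higher, 0.0559% lower, 2915 at an unadjusted p below 0.05). DESeq2 called 916 genes in all and also 0 of these 10.

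CDKN1A was at 23.4 CPM in MDA-MB468 parental and 36.5 CPM in MDA-MB468 CE controls, and at 23.2 and 50.04 CPM in those of BT549. It was thus higher in untreated CE cells of both lines. With the drug, CE cells held 0.352 of the parental level in MDA-MB468 and 2.38 times the parental level in BT549, so that the direction no longer matched. Among treated cells, 1 of the 10 genes, CDKN1A in MDA-MB468, had a CE log2 ratio of at most -1 (2.54% of all genes there, and 6.43% with 0 of the 10 in BT549). A ratio of at least 1 was seen for CDKN1A and CDKN2B in BT549 (5.23% of all genes) and for 0 of the 10 in MDA-MB468 (2.2%). The fitted CE effect was 0.45 ± 0.50 (edgeR, adjusted p = 0.702). By total-count scaling, CCND3 was the only 1 of the 10 genes with 1 sign in all 4 CE pairs, being lower in CE cells. Of all genes, 26.8% had 1 sign in all 4. The CCND3 log2 ratios were -0.41 and -0.31 in controls and -0.46 and -0.12 with the drug, in MDA-MB468 and BT549 (edgeR -0.30 ± 0.12, adjusted p = 0.338). The value of -0.12 in treated BT549 cells lay near the median of all genes in that pair. This median was -0.11 by total counts and 0.07 with TMM scaling, so the sign of CCND3 there may depend on the scaling. The Acetalax and CE ratios of a gene share libraries and are not independent.

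A test of whether the CE effect differed between the lines was added after these values were seen. edgeR called 3 of the 10 genes against 12.2% of all genes (7.3% with a higher effect in BT549, 4.91% with a lower one). BTG2 was higher in MDA-MB468 CE and lower in BT549 CE cells (difference -1.95 ± 0.38, adjusted p = 0.0155). CDKN2B (1.36 ± 0.30, adjusted p = 0.0232) and BTG1 (0.89 ± 0.21, adjusted p = 0.0337) went the other way, lower in CE cells of MDA-MB468 and higher in those of BT549. For CDKN2B the log2 ratios were -0.34 and 0.28 without the drug and -0.72 and 1.11 with it. A share of 3 in 10 here was chosen with the pattern in view, and each CE population was derived 1 time per line.

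The lines themselves differed in 7 of the 10 genes, against 56.8% of all genes tested (27.3% higher in BT549, 29.5% lower), so that this count by itself is near that of any gene. In CPM by total counts, the libraries of the lines did not overlap for 7 of the 10 genes (56.2% of all genes). GADD45B was among these 7, while the libraries of CDKN2C did overlap. The GADD45B gap was 77.4 to 82.4 CPM at its narrowest and was not computed under TMM scaling. BT549 held more CDKN2B (edgeR log2 fold change 2.43 ± 0.39, adjusted p = 0.00263), CDKN2C (2.17 ± 0.29, adjusted p = 0.00112), BTG1 (1.70 ± 0.26, adjusted p = 0.00191), CDKN1B (1.15 ± 0.21, adjusted p = 0.00405) and CCND3 (0.73 ± 0.15, adjusted p = 0.00611). MDA-MB468 held more CCND1 (-1.64 ± 0.28, adjusted p = 0.00306) and BTG2 (-2.50 ± 0.62, adjusted p = 0.0137). GADD45A, CDKN1A and GADD45B did not pass (adjusted p = 0.635, 0.766 and 0.121). GADD45B did without the treated CE pair (-0.72, adjusted p = 0.0496).

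Per length, GADD45A had the highest median in both lines, 136 FPKM (43.4 to 219) in MDA-MB468 and 128 FPKM (43.7 to 257) in BT549. BTG2 had the lowest, 3.02 FPKM (1.88 to 4.59) and 0.477 FPKM (0.147 to 1.15). The second place went to CCND1 in MDA-MB468 (68.6 FPKM) and to CDKN2C in BT549 (45.7 FPKM), and every pair of neighbours in the order had ranges that overlapped, except BTG2 and the gene next to it in each line. CCND1 made up 72.3% and 79.3% of the summed FPKM of CCND1 and CCND3 in untreated MDA-MB468 parental and CE cells, and 49.4% and 39.6% in those of BT549.

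**Figure D4:**
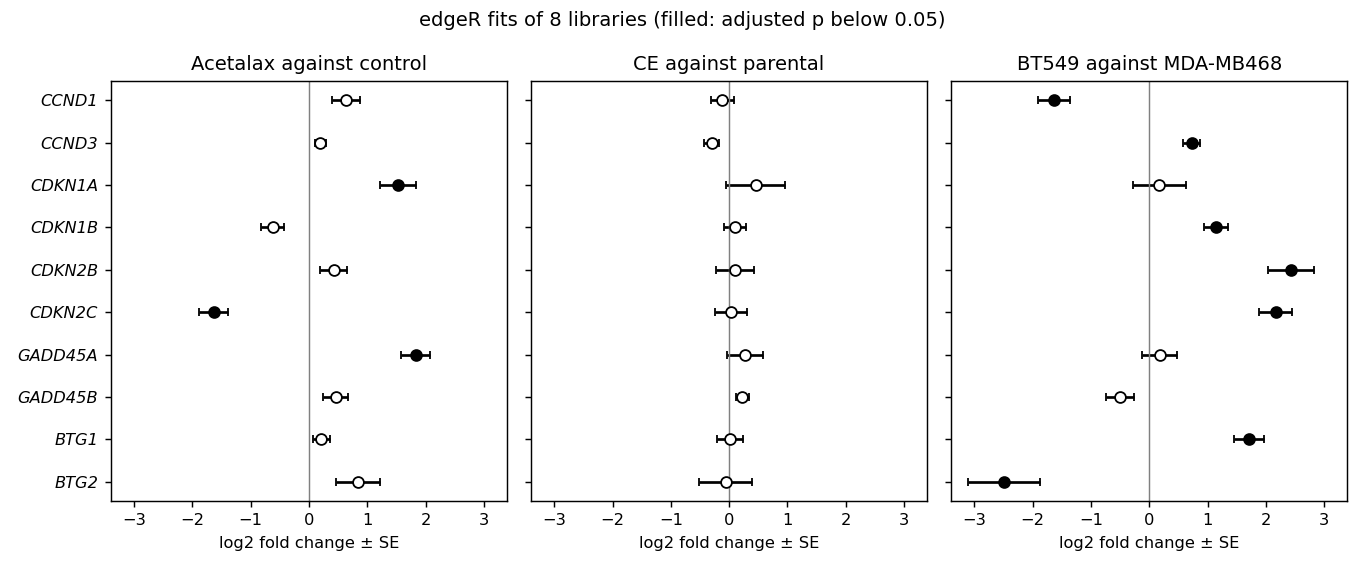
edgeR log2 fold change, with a standard error derived from the test statistic, for each gene in 3 fits of the 8 libraries. Filled points have an adjusted p below 0.05. They are 3 genes for Acetalax against control, 0 for CE against parental cells and 7 for BT549 against MDA-MB468.

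The partners of these genes were read from lists of related genes, by counts of genes that passed the same Acetalax test. Of all genes tested, 2.72% passed it as higher and 2.27% as lower, and the median log2 fold change was -0.035. Of 20 tested G1 cyclins, kinases and pocket proteins, 4 rose and 1 fell (median log2 fold change 0.16). Among the 4, and named after their values were seen, were CDK2 (0.55, edgeR, adjusted p = 0.04) and the factor gene E2F4 (0.58, adjusted p = 0.0424). CDC25A, a phosphatase that activates CDK2, rose by 1.01 (edgeR, adjusted p = 0.0326). CDK6, a partner of D cyclins, rose by 0.85 (edgeR, adjusted p = 0.0431), but hardly in BT549 parental cells. Its log2 ratios were 1.07, 0.075, 1.05 and 0.79 in MDA-MB468 parental, BT549 parental, MDA-MB468 CE and BT549 CE cells. RBL2, the pocket protein p130, fell by 0.63 (edgeR, adjusted p = 0.0377). RB1, named after its values were seen because it encodes the target of D cyclin kinases, was at 1.43 to 1.48 CPM in MDA-MB468 and 28.0 to 41.4 CPM in BT549.

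None of the 4 other CDK inhibitors passed. The largest change shared by the 4 backgrounds was that of CDKN3, a phosphatase of CDKs (edgeR log2 fold change -0.28, adjusted p = 0.134). CDKN2A, also named after its values were seen, was at 78.7 to 84.5 CPM in MDA-MB468 and 473 to 492 CPM in BT549, with Acetalax ratios between -0.07 and 0.06 while its neighbour CDKN2B reached 1.19. Of 14 GADD45 and BTG relatives and CCR4-NOT partners, 2 rose: BTG3, another antiproliferative BTG gene, by 0.87 (edgeR, adjusted p = 0.0318) and CNOT3, a CCR4-NOT subunit, by 0.63 (adjusted p = 0.0461). Of 13 p38 and JNK kinases, MAP2K3, which activates p38, rose by 1.71 (edgeR, adjusted p = 0.0326). MAP2K6, its close relative, fell by 1.98 (adjusted p = 0.034) at levels of 0 to 6.60 CPM.

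None of the 15 genes for the degradation of p27 and D cyclins passed, and none of the 15 proliferation markers did. The largest change shared by the 4 backgrounds among the former was that of FBXO4, an F-box gene (edgeR log2 fold change -0.58, adjusted p = 0.0677), followed by AMBRA1 (-0.26, adjusted p = 0.139). The proliferation markers had a median log2 fold change of -0.28 against -0.04 for all genes. Of the 15, 8 had an unadjusted edgeR p below 0.05, as did 5523 of all 19693 genes tested. MCM2, a helicase subunit, was at -0.34 (edgeR, adjusted p = 0.0836). CDC20, an activator of the anaphase-promoting complex, had log2 ratios of -0.91, -0.45, -0.25 and -0.98 in MDA-MB468 parental, BT549 parental, MDA-MB468 CE and BT549 CE cells (edgeR -0.56, adjusted p = 0.0535). The part of a shift in cell cycle phase in the values of the 10 genes was not tested.

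Other genes had profiles close to those of the 3 widest-ranging members over the 8 libraries, by the root mean square (RMS) difference of log2 CPM after the mean of each line was subtracted, among 11135 genes. Nearest to GADD45A were INHBA (RMS 0.301), MAP2K3 (0.312) and TGFB2 (0.313). Nearest to CDKN1A were SGMS2 (0.272), WNT9A (0.315) and NFATC2 (0.353). Nearest to CDKN2C were TRMT1L (0.258), PIK3R1 (0.286) and TTC30A (0.294). INHBA, a subunit gene of activins, had Acetalax log2 ratios of 2.60, 1.40, 1.62 and 3.02 in MDA-MB468 parental, BT549 parental, MDA-MB468 CE and BT549 CE cells, the same order of backgrounds as GADD45A (2.08, 1.06, 1.29 and 2.55). The same order held for MAP2K3 (1.93, 0.73, 1.38 and 2.42). These genes were picked for their likeness over the same 8 libraries, so a shared order of backgrounds follows in part from the choice. The likenesses are a description over libraries of 2 lines.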

How the data were processed

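RNA-seq of 8 libraries, 1 per condition, was grouped by the sample labels into 2 lines, 2 states and 2 treatments. The authors aligned reads to hg19 with STAR (2.7.11b in the submitters' processing notes) and deposited raw counts per gene from its GeneCounts option, not normalized. Which annotation and strand column they used is not given in the sources used here. The table held 58154 rows for 55679 identifiers, and 1392 repeated identifiers (2475 additional rows) were each kept 1 time. Their counts differed for 3.

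Log2 ratios used CPM by total counts with 0.5 CPM added. Intervals (95%, exact Clopper-Pearson) refer to the count ratio and hold for counting error alone. A value of FPKM was computed with merged exon lengths of a GENCODE annotation on hg19, limited to each gene's span. Tests were edgeR 4.0.16 quasi-likelihood fits of all 8 libraries (R 4.3.3, TMM, filterByExpr, 19693 genes) with matched pairs as blocks, 3 residual degrees of freedom (2 for interactions), and Benjamini-Hochberg adjustment over all genes. The edgeR test gives no standard error. The SE printed here was derived as the size of the log2 fold change divided by the square root of the F statistic. The repeats are 2 lines and their CE derivatives, and nothing tells separate cultures within a condition, so p-values measure the spread between these libraries. The fits were also run on simulated counts, as a check that changes put in were recovered. Those counts had a shared mean per gene apart from these changes. Their spread was smaller than in the fits with 3 residual degrees of freedom. It was also smaller than in the fit of the response difference between CE and parental cells. Those counts therefore do not give the error rates here.

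Alternatives were DESeq2 1.42.0, its size factors, no filter, no block, each pair left out, separate terms by state, other scalings, 0.1 CPM added and log2(FPKM+1). The 10 genes, the gene lists and the rules were chosen with earlier results of these data known. Named were all 10 genes, from each list the 2 genes with the largest change shared by the 4 backgrounds (ranked by the smallest of the 4 ratios) and the largest called in each direction, and for likeness the 3 nearest genes among those averaging 5 CPM or more. One list of genes and one motif are not reported here.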

Additional observations from a re-analysis of the deposited data

Results flagged for a closer look

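Differences between the lines passed a test in 4 cases. The Acetalax response of GADD45B was higher in BT549 than in MDA-MB468 by a log2 difference of 1.04 ± 0.18 (edgeR, adjusted p = 0.0426): the log2 ratios were 0.99 and 0.71 in BT549 parental and CE cells and 0.04 and -0.28 in those of MDA-MB468. The CE effect differed between the lines for CDKN2B (1.36 ± 0.30, edgeR, adjusted p = 0.0232), BTG1 (0.89 ± 0.21, adjusted p = 0.0337) and BTG2 (-1.95 ± 0.38, adjusted p = 0.0155), in a test added after the data were seen. BTG2 rested on 22 to 138 counts in the BT549 libraries. With 1 library per condition, no search for a stray sample within a group was possible.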

How the results depend on the processing

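With 1 library per condition the depth, at least 42261122 counts, limits only BTG2, and the tests rest on pairs from 2 lines. For Acetalax against control, edgeR called 984 genes and 3 of the 10. DESeq2 called 2684 genes and 4 of the 10, CDKN1B among them (log2 fold change -0.615, adjusted p = 0.0411). A fit of every gene with a count called 3585 genes and 8 of the 10. No block, and separate terms for parental and for CE cells, called 0 genes and 0 of the 10 (774, 1710 and 2311 genes at an unadjusted p below 0.05). Leaving out a pair in turn gave 0 to 554 genes and 0 to 3 of the 10. For CE against parental cells (23 genes), DESeq2 gave 916, every gene 446, no block and the 2 control pairs 0 each (363 and 610 at an unadjusted p below 0.05), and leaving out a pair 0 to 10. For the response by state (0 genes), every gene gave 3. For the response by line (351 genes, 1 of the 10), DESeq2 gave 925 genes and 2 of the 10, and every gene 1632 and 4. For the CE effect by line (3 of the 10), every gene gave 5. BT549 against MDA-MB468 called 7 or 8 of the 10.

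Of the 360 single-gene results under an alternative, 315 kept their direction and side of the threshold, 14 fell short of it, 14 newly passed it and 17 turned sign, none of the 17 past the threshold. In the CE fit, leaving out a pair spanned -0.25 to 0.12 for CCND1, -0.094 to 0.25 for CDKN1B, -0.28 to 0.41 for CDKN2B, -0.18 to 0.32 for CDKN2C, -0.20 to 0.26 for BTG1 and -0.53 to 0.32 for BTG2. The 2 control pairs gave -0.028 for CDKN2B and 0.048 for BTG2, and no block 0.52 for BTG2. Between the lines, leaving out a pair spanned -0.25 to 0.71 for CDKN1A and -0.075 to 0.51 for GADD45A. For BTG1, the response by state was 0.021 with every gene and 0.014 with DESeq2. The cause of these shifts was not tested. Other scalings, 0.1 CPM added and log2(FPKM+1) were applied to 60 log2 ratios, those of Acetalax and of the CE-parental control pairs. Of the resulting values, 193 were classed as the same and 47 as moved. The only sign change among them was CDKN1B in MDA-MB468 CE against parental controls (0.007, and -0.054 with TMM or -0.043 with size factors). Ratios between CE and parental cells with the drug, and between the lines, were not checked in this way. They include CCND3 in treated BT549 cells (-0.12 by total counts).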
